A study of Mus musculus with 22 samples.

Results

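The 10 genes that encode the contractile apparatus of smooth muscle cells and myofibroblasts, *Acta2*, *Actg2*, *Tagln*, *Cnn1*, *Cnn2*, *Myl9*, *Myh11*, *Tpm1*, *Tpm2* and *Des*, were measured in serially passaged mouse embryonic fibroblasts (MEFs). They were taken as a list by symbol, not by their values, and all 10 had a row among the 55401 gene identifiers counted in the 22 RNA-seq libraries. MEFs are primary cells grown from mid-gestation embryos after removal of the head and viscera, and they become senescent when passaged in atmospheric oxygen. There were 2 sets of cultures, each with 4 libraries from WT cells at passage 3 (early) and 4 from WT cells at passage 8 (late). The *S6K1* set had in addition 3 libraries of passage 8 cells without S6K1 (late KO), and the *S6K1/S6K2* set 3 libraries of passage 8 cells without S6K1 and S6K2 (late DKO). S6K1 and S6K2, encoded by *Rps6kb1* and *Rps6kb2*, are protein kinases activated by mTORC1. KO MEFs and their WT controls were littermates, whereas DKO embryos and their WT controls came from different mothers, so genotype and litter cannot be told apart in the DKO comparison. The labels do not say which embryo gave which library, so *P* values measure the spread between libraries.

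In a smooth muscle cell or an activated fibroblast, myosin II pulls on filaments of smooth muscle actin, and the light chain encoded by *Myl9* switches the motor on when it is phosphorylated. Tropomyosins and calponins lie along the actin filament and control access of myosin to it, transgelin crosslinks it, and desmin builds the intermediate filaments that anchor it. Fibroblasts that take up this programme are called myofibroblasts, and many of its genes are driven by serum response factor (SRF) and its cofactors of the MRTF family, which bind a short element called the CArG box.

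The CArG box is written as CC, 6 bases that are A or T, and GG, and it reads the same on both strands. Windows of 300 bases around a start site (250 before it, 50 after it) were given by RefSeq on GRCm38.p6 for 7 of the 10 genes, and not for *Actg2*, *Tagln* and *Myh11*. Distances are counted from the window's own start site. For *Acta2*, *Myl9*, *Cnn1*, *Tpm1* and *Tpm2* this site is not the end of the gene as listed below. Both *Acta2* matches lie inside the gene as listed, and the *Tpm1* window does not reach the listed start of its gene. A complete CArG box stood in the windows of *Cnn2*, 56 bases upstream of the start, and *Myl9*, 161 bases upstream, against 1.63% of all 32851 windows. With 1 base of the core allowed to differ, *Acta2* had matches 84 and 34 bases upstream and *Myl9* had a further match 99 bases upstream, and 9.98% of all windows held such a match or a complete box. The windows of *Cnn1*, *Tpm1*, *Tpm2* and *Des* had neither, and TATAAA was in none of the 7, against 13.6% of all windows. A match is a run of letters and not a measured binding site. The 3 windows with a match are shown with the matches in capitals. They lie at chr19:34255324-34255623 on the minus strand (*Acta2*), chr10:79988350-79988649 on the plus strand (*Cnn2*) and chr2:156775214-156775513 on the plus strand (*Myl9*).
Acta2: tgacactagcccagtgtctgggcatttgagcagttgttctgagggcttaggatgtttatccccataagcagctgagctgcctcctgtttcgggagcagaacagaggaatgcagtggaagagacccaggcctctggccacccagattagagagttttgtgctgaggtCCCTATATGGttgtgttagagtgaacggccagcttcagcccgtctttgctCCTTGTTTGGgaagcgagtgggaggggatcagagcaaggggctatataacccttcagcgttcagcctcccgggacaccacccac
Cnn2: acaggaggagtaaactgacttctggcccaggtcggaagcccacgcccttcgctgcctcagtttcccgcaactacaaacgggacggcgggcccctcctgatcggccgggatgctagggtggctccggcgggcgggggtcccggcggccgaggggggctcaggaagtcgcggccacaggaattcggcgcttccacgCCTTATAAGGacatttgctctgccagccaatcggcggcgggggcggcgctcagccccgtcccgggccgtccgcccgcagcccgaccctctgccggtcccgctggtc
Myl9: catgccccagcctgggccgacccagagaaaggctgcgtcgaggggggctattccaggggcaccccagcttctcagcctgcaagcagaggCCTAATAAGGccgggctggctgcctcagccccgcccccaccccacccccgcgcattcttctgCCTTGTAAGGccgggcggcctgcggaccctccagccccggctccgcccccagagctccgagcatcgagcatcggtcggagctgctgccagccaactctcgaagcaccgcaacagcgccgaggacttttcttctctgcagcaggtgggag

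The total count per library was 10742454 to 17314832, and levels are given as CPM, counts scaled to that total. The kinase genes followed the labels: mean *Rps6kb1* levels (± SD, n = 3 for KO and DKO, n = 4 for WT) were 19.7 ± 5.81 CPM in KO and 62.5 ± 7.25 CPM in matching late WT MEFs, and 23.9 ± 5.46 CPM in DKO and 75.0 ± 13.5 CPM in matching late WT MEFs. *Rps6kb2* was at 0.824 ± 0.538 CPM in DKO and 13.4 CPM in late WT MEFs. No pair of libraries of a group differed by as little as sampling noise (the smallest chi-square per degree of freedom was 20.61 over 30 pairs). Libraries of every group but the KO were a mixture of some that expressed Y-linked genes and some that did not, and all 3 KO libraries expressed them.

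Libraries are given below in the order of their replicate numbers, which only name them. The genes made up 1.04 to 2.66% of all counts in a library, 1.48 to 1.98% in late WT and 2.22 to 2.66% in KO MEFs of the *S6K1* set. Levels between genes can be compared only per length, as RPKM, which divides CPM by the exon length in kilobases. On that scale *Acta2* had a median of 2787 RPKM over the 22 libraries (1254 to 4677) and *Tagln* 2423 RPKM (1322 to 5215). *Myl9* followed at 692 RPKM, *Tpm2* at 525, *Cnn2* at 476, *Tpm1* at 430, *Actg2* at 116, *Cnn1* at 81.6, *Des* at 6.46 and *Myh11* at 1.90 RPKM (0.321 to 6.65). The MEFs therefore held abundant smooth muscle α-actin and transgelin transcripts and little of the smooth muscle myosin heavy chain, and neighbours in this order overlapped in the range of their libraries except *Tagln* and *Myl9* (305 to 1286 RPKM). The RPKM of *Tpm1* divides by the union of its many alternative exons (6485 bases) and is low for that reason in any library that uses few of them.

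**Figure D1:**
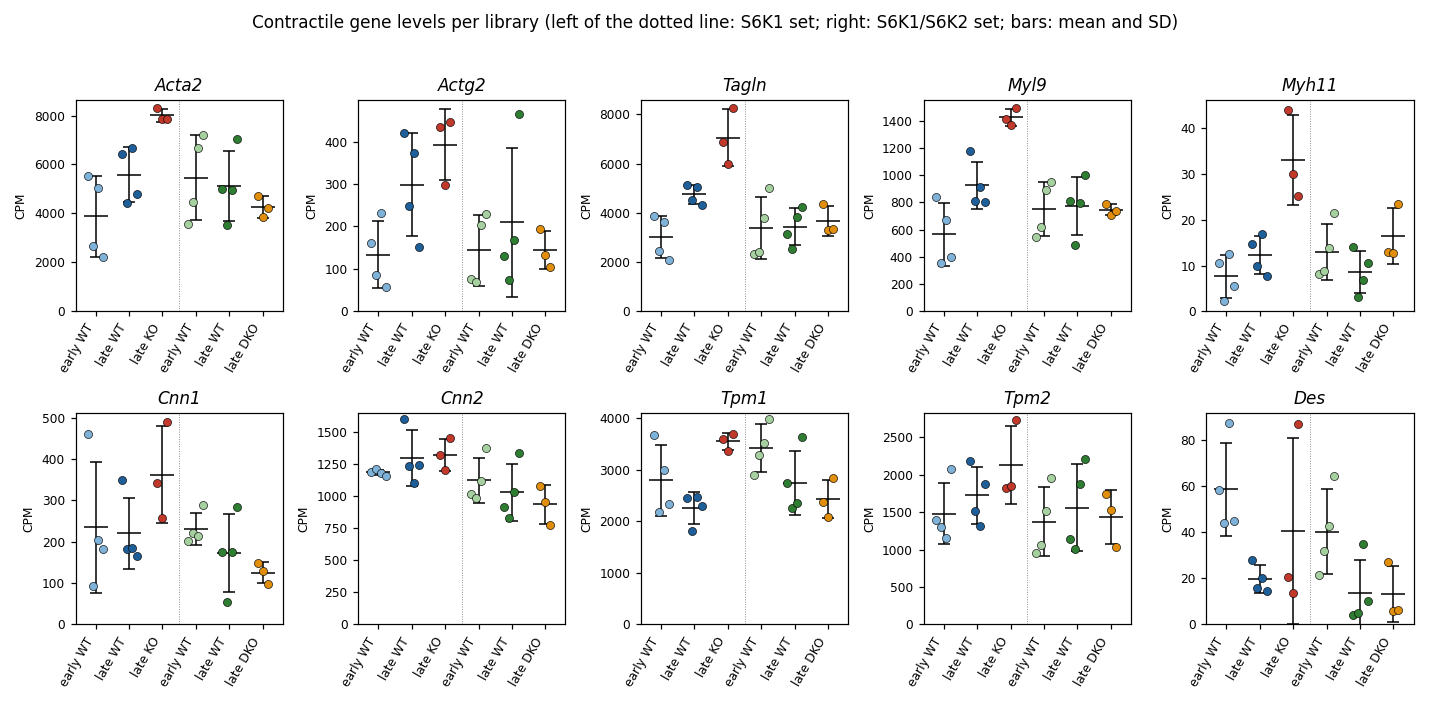
Levels (CPM, linear axes from 0) of the 10 contractile genes, 1 panel per gene, with a point per library, a bar at the group mean and the SD (cut at 0); the 6 groups run from early WT to late KO of the *S6K1* set and from early WT to late DKO of the *S6K1/S6K2* set. In the *S6K1* set the KO libraries of *Acta2* (7862 to 8329 CPM) lie above every late WT library (4430 to 6691 CPM), and in the *S6K1/S6K2* set late WT libraries overlap those of early WT and of DKO in every panel.

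*Acta2* encodes smooth muscle α-actin, the actin by which myofibroblasts are usually recognised (chr19:34240336-34255585, minus strand). In the *S6K1* set it was at 5539, 2669, 5054 and 2233 CPM in early WT, 6434, 4430, 6691 and 4801 CPM in late WT and 8329, 7862 and 7872 CPM in KO MEFs. Its levels in the other set were 3555, 4467, 6654 and 7192 CPM in early WT, 4991, 3523, 4936 and 7033 CPM in late WT and 4701, 3836 and 4237 CPM in DKO MEFs. KO libraries were all above the late WT libraries, and DKO libraries all lay within the range of theirs. *Actg2*, the enteric smooth muscle γ-actin (chr6:83512909-83536251, minus strand), was at 161, 86.3, 231.7 and 56.1 CPM in early WT, 419.4, 249.2, 373.5 and 150.7 CPM in late WT and 434.7, 296.8 and 447 CPM in KO MEFs. Levels in the *S6K1/S6K2* cultures were 75.8, 68.8, 203.3 and 228.6 CPM in early WT, 130.7, 74.6, 167.6 and 466.5 CPM in late WT and 193.7, 132.5 and 105.5 CPM in DKO MEFs. It overlapped between the groups of every comparison, and the replicate 4 library of late WT MEFs in the *S6K1/S6K2* set was the highest of the 22.

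*Tagln* encodes transgelin (SM22α), an actin-crosslinking protein (chr9:45929628-45936058, minus strand). It was at 3867, 2456, 3630 and 2096 CPM in early WT, 5136, 4528, 5034 and 4329 CPM in late WT and 6881, 5982 and 8271 CPM in KO MEFs of the *S6K1* set. The groups did not overlap at either step. The other cultures held it at 2312, 2415, 3784 and 5013 CPM in early WT, 3146, 2531, 3818 and 4249 CPM in late WT and 4350, 3304 and 3323 CPM in DKO MEFs, and the groups overlapped.

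Calponins are actin-binding proteins that inhibit the myosin ATPase, *Cnn1* being the form of differentiated smooth muscle (chr9:22099221-22109221, plus strand) and *Cnn2* a form found in many non-muscle cells (chr10:79988600-79995400, plus strand). *Cnn1* was at 459.4, 91.65, 203.7 and 182.4 CPM in early WT, 349.1, 181.3, 184.3 and 164.4 CPM in late WT and 341.4, 256.7 and 488.7 CPM in KO MEFs. The *S6K1/S6K2* cultures held it at 201.9, 219.8, 214 and 287.5 CPM in early WT, 175.8, 53.29, 174.8 and 283.1 CPM in late WT and 147.4, 129.4 and 96.81 CPM in DKO MEFs. It overlapped between the groups of every comparison, and the replicate 1 library was the highest of both early WT (459.4 CPM) and late WT MEFs (349.1 CPM) of the *S6K1* set. *Cnn2* was the steadiest of the 10, with 1184 ± 20.4 CPM in early WT (n = 4), 1295 ± 216 CPM in late WT (n = 4) and 1323 ± 124 CPM in KO MEFs (n = 3; SD in each case). Its levels in the other set were 1122 ± 176, 1029 ± 223 and 936 ± 153 CPM (SD, n = 4, 4 and 3).

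*Myl9* encodes the regulatory light chain of smooth muscle and non-muscle myosin (chr2:156775408-156781657, plus strand). It was at 842.6, 353.9, 667.1 and 400.2 CPM in early WT, 1174, 806.5, 914.8 and 801 CPM in late WT and 1412, 1370 and 1494 CPM in KO MEFs of the *S6K1* set. Levels in the *S6K1/S6K2* cultures were 544.3, 618.1, 887.4 and 949.6 CPM in early WT, 806.9, 485.7, 798.6 and 1000 CPM in late WT and 788.4, 709.3 and 736.1 CPM in DKO MEFs. Its order of libraries was close to that of *Acta2*, with the KO libraries above all others of the set. *Myh11*, the smooth muscle myosin heavy chain (chr16:14194527-14292188, minus strand), was low throughout, at 10.57, 2.128, 12.5 and 5.478 CPM in early WT, 14.71, 9.986, 16.9 and 7.757 CPM in late WT and 44.1, 29.98 and 25.26 CPM in KO MEFs. The other cultures held it at 8.075, 8.882, 13.83 and 21.4 CPM in early WT, 13.94, 3.16, 6.8 and 10.54 CPM in late WT and 12.99, 12.75 and 23.48 CPM in DKO MEFs. KO libraries were above every WT library of their set, and the DKO libraries overlapped their late WT controls.

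Tropomyosins are coiled-coil proteins that run along the actin filament. *Tpm1* (chr9:67022590-67049672, minus strand) was at 3687, 2176, 2992 and 2333 CPM in early WT, 2463, 1813, 2472 and 2290 CPM in late WT and 3598, 3369 and 3699 CPM in KO MEFs. The *S6K1/S6K2* cultures held it at 2903, 3281, 3526 and 3993 CPM in early WT, 2742, 2260, 2362 and 3633 CPM in late WT and 2383, 2088 and 2837 CPM in DKO MEFs. KO libraries were above all late WT libraries but overlapped those of early WT MEFs, a different order from *Acta2*, *Tagln* and *Myl9*. *Tpm2* (chr4:43513726-43523583, minus strand) was at 1479 ± 407, 1723 ± 385 and 2133 ± 519 CPM in early WT, late WT and KO MEFs, and at 1371 ± 459, 1561 ± 577 and 1438 ± 364 CPM in early WT, late WT and DKO MEFs (SD, n = 4, 4 and 3 in each set). Its groups overlapped in every comparison.

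*Des* encodes desmin, the intermediate filament protein of muscle cells and pericytes (chr1:75360292-75368579, plus strand). It was at 58.27, 43.91, 87.02 and 44.95 CPM in early WT, 28.05, 15.7, 20.25 and 14.44 CPM in late WT and 20.61, 13.72 and 86.69 CPM in KO MEFs of the *S6K1* set. Its levels in the other set were 21.41, 31.74, 42.54 and 64.41 CPM in early WT, 4.126, 4.774, 34.98 and 10.14 CPM in late WT and 27.1, 5.958 and 6.362 CPM in DKO MEFs. Late WT libraries of the *S6K1* set were all below the early ones, whereas 1 KO library (replicate 3) was close to the highest early WT library.

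The first comparison asked what changes between early and late WT MEFs of the *S6K1* set. No contractile gene passed the test (edgeR quasi-likelihood *F* test, adjusted *P* under 0.05), while 12.9% of all tested genes did (1827 of 14132). Point estimates were positive for 7 genes and negative for 3, with a median log2 fold change of 0.36 against −0.038 over all tested genes. *Tagln* was nearest to the threshold at 0.66 ± 0.20 (log2 fold change ± SE; adjusted *P* = 0.0515), followed by *Des* at −1.58 ± 0.50 (adjusted *P* = 0.0575), *Myl9* at 0.72 ± 0.23 (adjusted *P* = 0.0604) and *Actg2* at 1.18 ± 0.38 (adjusted *P* = 0.0628). These 4 had an unadjusted *P* under 0.05. DESeq2 called the same 4 (adjusted *P* = 0.00245 to 0.0136), beside 16.1% of all genes it tested (2651 of 16438). *Acta2* was at 0.54 ± 0.25 (95% interval −0.0053 to 1.09; adjusted *P* = 0.186), and *Cnn1*, *Cnn2*, *Myh11*, *Tpm1* and *Tpm2* had adjusted *P* values of 0.285 to 0.938. By CPM alone, every late WT library was above every early one for *Tagln*, which held for 8.4% of tested genes, and below for *Des*, which held for 8.63%. Estimates that stand so close to the threshold crossed it under several other settings. With Y-linked expression as a covariate 5 passed, *Acta2* (0.77, adjusted *P* = 0.0105), *Actg2* (1.54, 0.0107), *Tagln* (0.76, 0.00998), *Myl9* (0.88, 0.0122) and *Myh11* (1.09, 0.0378), while *Des* did not (−1.49, 0.0981). That fit called 3301 genes, 23.4% of those tested.

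The same passages were compared in the *S6K1/S6K2* set. None of the 10 genes passed edgeR's test or DESeq2's, none had an unadjusted *P* under 0.05, and 13.2% of all tested genes were called (1892 of 14365). Point estimates were positive for 4 genes and negative for 6, with a median of −0.042 (−0.20 to 0.096 when each library was left out in turn) against 0.013 over all tested genes. *Acta2* was at −0.031 (adjusted *P* = 0.951), *Tagln* at 0.090 (0.855) and *Myl9* at 0.11 (0.784). *Des* had the largest estimate here as well, −1.47 ± 0.74 (log2 fold change ± SE; 95% interval −3.11 to 0.17; adjusted *P* = 0.206), and without the replicate 3 library of late WT MEFs, which was at 34.98 CPM, it was −2.64 (adjusted *P* = 0.0412). No gene of the list was free of overlap between early and late libraries. The difference between the sets in the effect of passage was tested as an interaction over all 22 libraries. No contractile gene passed it by edgeR or DESeq2, none had an unadjusted *P* under 0.05, and 0.712% of all tested genes passed (106 of 14886). The interaction of *Acta2* was −0.61 (95% interval −1.39 to 0.17), that of *Tagln* −0.61 (−1.34 to 0.12) and that of *Myl9* −0.65 (−1.36 to 0.069), so the sets were not shown to differ, and the intervals take in 0 as well as differences larger than the change in the *S6K1* set.

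The next comparison asked what differs between late KO and late WT MEFs, which are also the WT libraries of the first comparison. Every contractile gene had a positive estimate, and none passed the test. The median log2 fold change was 0.62 against −0.010 over all 14132 tested genes, of which 0.0425% were called (6 genes). The largest estimate was that of *Myh11*, 1.44 ± 0.42 (log2 fold change ± SE; 95% interval 0.52 to 2.36; adjusted *P* = 0.255). *Tpm1* was at 0.68 ± 0.19 (95% interval 0.26 to 1.10; adjusted *P* = 0.239), *Myl9* at 0.65 ± 0.25 (adjusted *P* = 0.382) and *Tagln* at 0.59 ± 0.22 (adjusted *P* = 0.362). These 4 had an unadjusted *P* under 0.05. The share of all tested genes under that cut was not determined. DESeq2 called 1 of the 10, *Tpm1* (0.67, adjusted *P* = 0.0139), and 250 genes in all, 1.69% of the 14825 it tested. *Acta2* was at 0.54 ± 0.27 (adjusted *P* = 0.515), *Cnn1* at 0.75 (0.586), *Des* at 1.11 (0.487), *Actg2* at 0.43 (0.753), *Tpm2* at 0.33 (0.747) and *Cnn2* at 0.049 (0.949). All KO libraries were above all late WT libraries in CPM for 5 of the 10, *Acta2*, *Tagln*, *Myl9*, *Myh11* and *Tpm1*, against 5.29% of tested genes, and below them for none. The share of counts on mitochondrial genes also separated these groups, at 0.704 to 0.857% in late WT and 1.16 to 1.41% in KO libraries. Among early WT libraries of this set it was 1.70 and 1.58% in those with high *Acta2* (replicates 1 and 3) and 1.00 and 1.05% in the others. Replicates 1 and 3 were also the early WT libraries with Y-linked expression. Late WT libraries of this set had the opposite order. Their share was 0.704 and 0.781% where *Acta2* was at 6691 and 6434 CPM, and 0.833 and 0.857% at 4430 and 4801 CPM. The *S6K1/S6K2* cultures had shares of 0.987 to 1.71% in late WT and 1.09 to 1.23% in DKO libraries. Here the late WT library with the lowest share had the highest *Acta2* of its group (7033 CPM). The part of the mitochondrial share in these levels was not tested. The estimate for *Des* rests on the replicate 3 library, without which it was −0.22.

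Y-linked expression differed between these groups, being present in 3 of 3 KO and 1 of 4 late WT libraries, and it also went with the level of some of these genes among early WT MEFs of the *S6K1* set. There *Acta2* was at 5054 to 5539 CPM in the 2 libraries with Y-linked expression and 2233 to 2669 CPM in the 2 without, *Tagln* at 3630 to 3867 against 2096 to 2456 CPM, *Myl9* at 667.1 to 842.6 against 353.9 to 400.2 CPM and *Actg2* at 161 to 231.7 against 56.06 to 86.33 CPM. Early WT MEFs of the *S6K1/S6K2* set had no such order, with *Acta2* at 4467 and 6654 CPM in libraries with Y-linked expression and 3555 and 7192 CPM in those without. Against the only late WT library with Y-linked expression, the mean of the 3 KO libraries was higher for all 10 genes, by a median of 0.52 in log2 CPM, with *Cnn1* at 0.923, *Myh11* at 0.911, *Tpm2* at 0.667, *Myl9* at 0.639, *Tpm1* at 0.523, *Des* at 0.517, *Tagln* at 0.472, *Acta2* at 0.261, *Cnn2* at 0.26 and *Actg2* at 0.0487. With Y-linked expression as a covariate the KO estimates were larger for *Tpm2* (0.82, adjusted *P* = 0.231) and *Cnn2* (0.29, 0.501). They were smaller for the other 8: *Des* 0.92 (0.606), *Myh11* 0.71 (0.459), *Tpm1* 0.52 (0.266), *Cnn1* 0.39 (0.809), *Tagln* 0.39 (0.452), *Myl9* 0.34 (0.594), *Acta2* 0.090 (0.885) and *Actg2* −0.22 (0.850). None passed, and 51 genes were called in all. With 1 such late WT library, Y-linked expression and genotype can hardly be told apart. Within the libraries without Y-linked expression, 8 of the 10 genes were higher in late (n = 3) than in early WT MEFs (n = 2) of the *S6K1* set, by a median of 0.897, and within those with it 6 of 10 were higher (n = 1 against 2), by a median of 0.172.

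**Figure D2:**
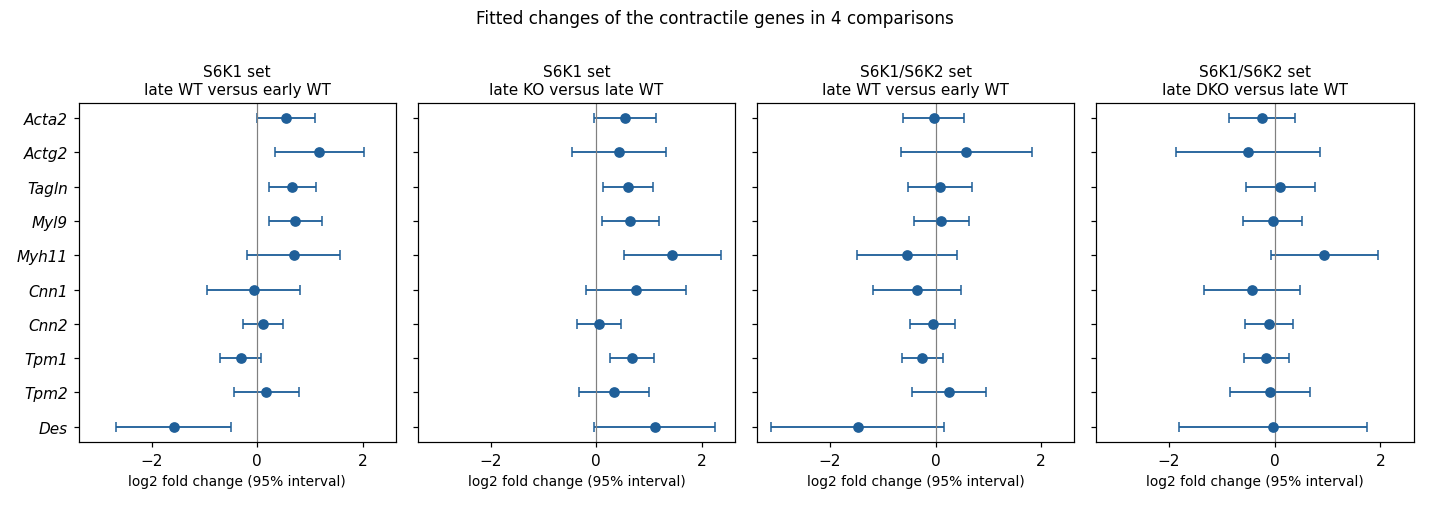
Log2 fold change (x axis) of each contractile gene with its 95% interval (bars) from edgeR, in 4 panels for late versus early WT and late KO or DKO versus late WT in each MEF set. In the KO panel all 10 points lie above 0 and in the DKO panel 8 of 10 lie below it, and no gene passed an adjusted P of 0.05 in any panel.

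In DKO MEFs most of the estimates were negative. None of the 10 passed edgeR's test or DESeq2's against late WT MEFs, none had an unadjusted *P* under 0.05, and 4.78% of all tested genes were called (686 of 14365). Estimates were positive for 2 genes and negative for 8, with a median of −0.10 (−0.26 to 0.062 when each library was left out in turn) against −0.0055 over all tested genes. *Acta2* was at −0.25 (adjusted *P* = 0.718), *Tagln* at 0.11 (0.892), *Myl9* at −0.035 (0.964) and *Tpm1* at −0.16 (0.730). *Myh11* was again the highest, at 0.94 ± 0.46 (log2 fold change ± SE; 95% interval −0.078 to 1.95; adjusted *P* = 0.314). Every gene overlapped between the groups. *Actg2* was at −0.50 (adjusted *P* = 0.734), and at 0.22 without the replicate 4 library of late WT MEFs. Within libraries without Y-linked expression (2 DKO, 1 late WT), 8 of 10 genes were lower in DKO MEFs, by a median of −0.516, and within those with it (1 DKO, 3 late WT) 3 of 10 were lower, with a median of 0.0727.

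The difference between the DKO effect and the KO effect, each against the late WT MEFs of its own set, was negative for all 10 genes, with a median of −0.72 against −0.0078 over all tested genes. None passed the interaction test by edgeR or DESeq2, 1 had an unadjusted *P* under 0.05, and 0.00672% of all tested genes passed (1 of 14886). That gene of the list was *Tpm1*, at −0.82 ± 0.26 (log2 ± SE; 95% interval −1.37 to −0.28; adjusted *P* = 0.303). *Acta2* was at −0.78 (95% interval −1.62 to 0.063; adjusted *P* = 0.492), *Cnn1* at −1.17 (0.517) and *Myl9* at −0.67 (0.529). The KO and DKO effects on these genes were therefore not shown to differ at a 5% threshold over all genes.

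Libraries of a group differed widely in some contractile genes. The pooled SD within groups of log2 CPM had a median of 0.42 over the 10 genes and 0.33 over the 14886 tested genes. *Des* (0.95, percentile 98.7 of all tested genes), *Actg2* (0.81, percentile 97.3), *Myh11* (0.72, percentile 95.5) and *Cnn1* (0.68, percentile 94.2) were among the most variable genes of the experiment. *Acta2* was at 0.42 (percentile 69.4), whereas *Tpm1* (0.25, percentile 29.3) and *Cnn2* (0.21, percentile 19.0) were steadier than most. Between the lowest and highest of the 22 libraries *Des* spanned 21.1-fold, *Myh11* 20.7-fold, *Cnn1* 9.17-fold and *Actg2* 8.32-fold, against 3.73-fold for *Acta2* and 2.07-fold for *Cnn2*.

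The genes also deviated together. After subtracting the mean of its group from each library, Pearson's *r* over the 22 libraries was above 0 for all 45 pairs of genes, with a median of 0.647 (0.102 to 0.937). These correlations describe libraries that share a depth and a scaling, and no test was made. *Acta2* and *Myl9* had the closest deviations (*r* = 0.937), followed by *Acta2* and *Tagln* (0.89), *Actg2* and *Tagln* (0.889) and *Acta2* and *Actg2* (0.884). *Cnn2* and *Tpm2* were close to each other (0.834). The lowest values were those of *Myh11* with *Tpm2* (0.102) and *Des* (0.146), although *Myh11* was at 0.813 with *Myl9* and 0.77 with *Acta2*. Ranked by likeness to the mean of the other 9, *Myl9* was at position 3 of all 14886 tested genes (*r* = 0.92), *Tagln* at 4 (0.917), *Actg2* at 11 (0.859), *Acta2* at 13 (0.857) and *Cnn1* at 48 (0.788), whereas *Myh11* was at 375 (0.61), *Des* at 903 (0.531) and *Tpm2* at 908 (0.53). Outside the list, the genes most like the mean of the 10 were *Hspb1*, a small heat shock protein that binds actin (*r* = 0.935), *Nppb*, the B-type natriuretic peptide (0.918), *Acta1*, skeletal muscle α-actin (0.906), *Akr1b10*, an aldo-keto reductase (0.885), and *Acot7*, an acyl-CoA thioesterase (0.882).

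**Figure D3:**
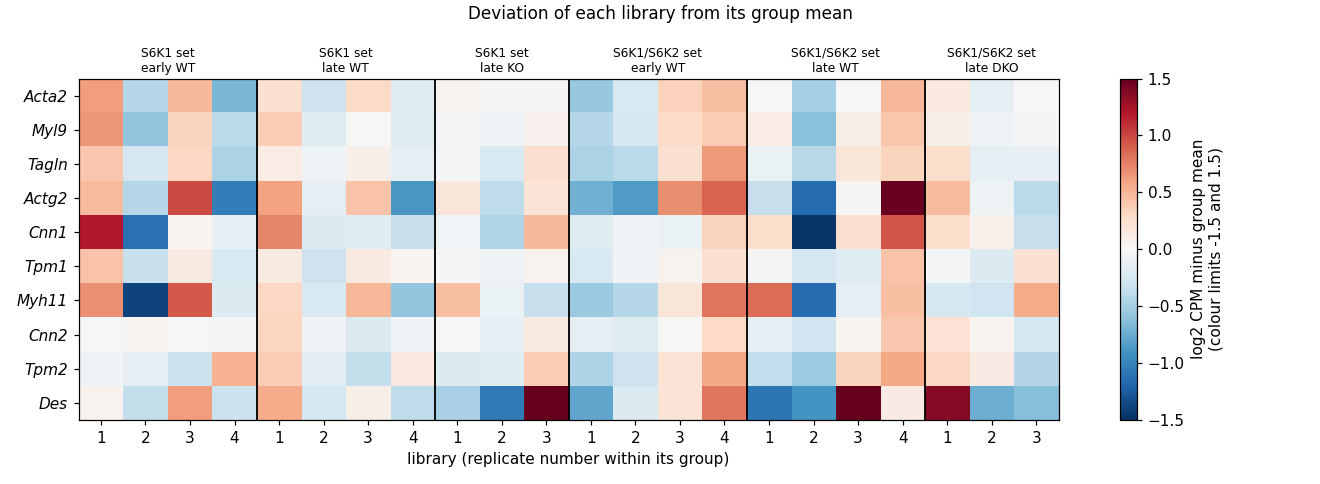
Log2 CPM of each contractile gene (rows, from *Acta2* at the top to *Des*) in each of the 22 libraries (columns, by group and replicate number) minus the mean of its group, from blue (below) to red (above) with colour limits at −1.5 and 1.5. Columns tend to be of one colour from *Acta2* to *Cnn1*, as in the early WT libraries of the *S6K1* set, while *Des* has its own dark cells in KO replicate 3 and in late WT replicate 3 of the *S6K1/S6K2* set.

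The smooth muscle forms were set against the other genes of their families by shares of the family's summed RPKM. Among the 6 actin genes, *Acta2* made up 51.5 ± 12.1% in early WT (SD, n = 4), 55.2 ± 3.59% in late WT (n = 4) and 65.0 ± 2.80% in KO MEFs (n = 3) of the *S6K1* set. KO libraries (61.9 to 67.3%) did not overlap late WT libraries (52.1 to 60.3%). The cytoplasmic β-actin gene *Actb* was the other main actin, at 39.2 ± 4.34% in late WT and 27.9 ± 3.33% in KO MEFs. Its share must fall when that of *Acta2* rises. In CPM *Actb* overlapped between late WT (4838 to 7709) and KO libraries (4566 to 5966). For the *S6K1/S6K2* set the share of *Acta2* was 59.4 ± 4.31%, 55.0 ± 4.39% and 58.1 ± 4.28% in early WT, late WT and DKO MEFs (SD, n = 4, 4 and 3). Among the 3 calponin genes, the share of the smooth muscle form *Cnn1* was 10.9% in late WT and 15.5% in KO MEFs. In the other set it was 9.67% in late WT and 7.63% in DKO MEFs. *Cnn2* made up 55.3 to 63.0% as a mean in each group. Its KO libraries (54.5 to 55.7%) lay below the late WT libraries (60.6 to 64.6%). Among the 4 tropomyosin genes, *Tpm1* was at 25.7 ± 2.03% in late WT (n = 4) and 29.5 ± 0.711% in KO MEFs (SD, n = 3). These libraries just overlapped, with late WT up to 28.67% and KO from 28.66%. *Tpm3* had group means of 2.55 to 3.68%, the lowest in KO and the highest in late WT MEFs of the *S6K1* set. Its KO libraries (2.15 to 2.95%) did not overlap the late WT libraries (3.45 to 4.07%). Shares within a library do not depend on scaling, and no test was made of them. Family genes outside the list, such as *Actg1* and *Tpm3*, were not checked for reads shared with related genes or pseudogenes, which would alter the shares.

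**Figure D4:**
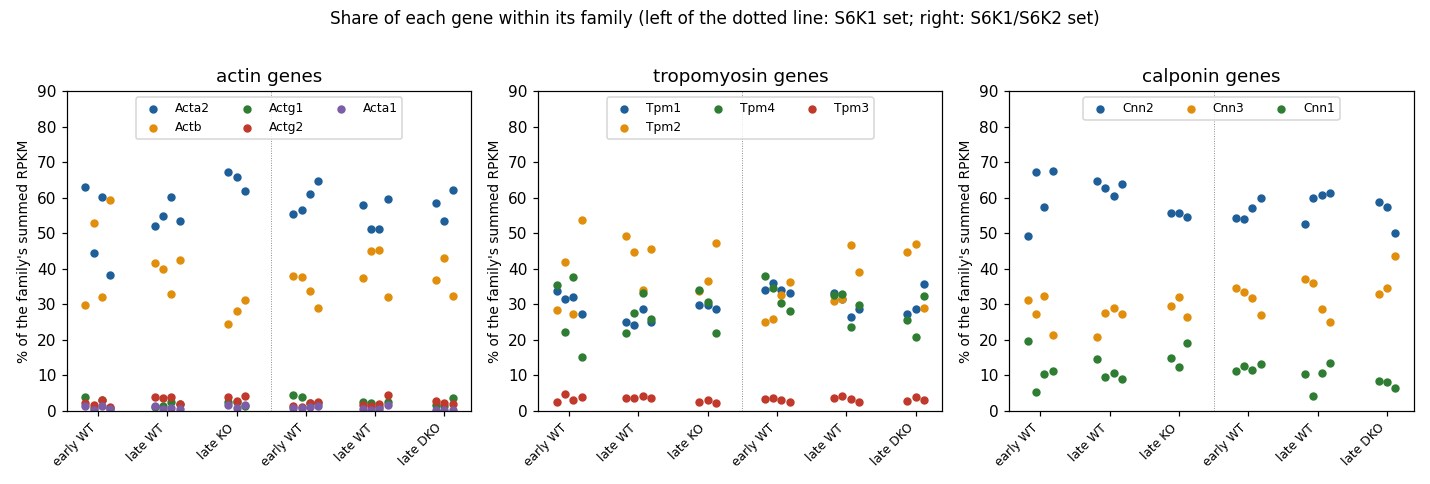
Share (y axis, % of the family's summed RPKM) of each actin, tropomyosin and calponin gene in each library, by group, with the *S6K1* set to the left of the dotted line; *Actc1*, under 0.003% in every library, is not drawn. *Acta2* and *Actb* hold most of the actin sum, so their shares mirror each other by construction. *Acta2* is at 61.9 to 67.3% in KO libraries against 52.1 to 60.3% in late WT libraries.

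Other genes of the actomyosin system were listed separately, 31 of 32 with enough counts to be tested. In late against early WT MEFs of the *S6K1* set 1 of 31 passed, *Myl12a*, a non-muscle myosin regulatory light chain, which rose by 0.62 ± 0.17 (log2 ± SE; adjusted *P* = 0.0346). In KO MEFs 25 of 31 estimates were positive and 6 negative, with a median of 0.306. None of these passed by edgeR, and 10 had an unadjusted *P* under 0.05. DESeq2 called 2, *Lmod1* and *Vcl*, beside 1.69% of all genes it tested. *Lmod1*, which encodes leiomodin, an actin nucleator of smooth muscle, had an edgeR estimate of 0.73 (adjusted *P* = 0.221). *Vcl*, which encodes the adhesion protein vinculin, had an edgeR estimate of 0.70 (adjusted *P* = 0.234). In DKO MEFs 13 were positive and 18 negative, with a median of −0.049. None passed by edgeR or DESeq2, and 2 had an unadjusted *P* under 0.05. In late against early WT MEFs of the *S6K1/S6K2* set none of 31 passed by edgeR, and 8 had an unadjusted *P* under 0.05. DESeq2 called 3, beside 17.5% of all genes it tested (2769 of 15781).

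Most regulators of the programme did not pass the test. *Srf* had group means of 22.7 to 29.7 CPM, *Mrtfa* 36.8 to 55.7 CPM and *Mrtfb* 20.2 to 31.0 CPM, and none of these 3 passed in the passage or genotype comparisons. *Myocd*, the smooth muscle cofactor myocardin, had too few counts to be tested. Of 15 tested genes in this list of SRF, RhoA and other regulators, 1 passed by edgeR in any of the 4 comparisons. It was *Klf4*, a transcription factor. It rose by 1.26 ± 0.12 (log2 ± SE, adjusted *P* = 0.00017) in late against early WT MEFs of the *S6K1/S6K2* set. DESeq2 called it there too, and also *Rhoa* higher in late WT MEFs of the *S6K1* set and *Rhob* lower in DKO MEFs. In the *S6K1* set *Klf4* was at −0.66 (adjusted *P* = 0.14), and it passed the interaction test between the sets (adjusted *P* = 0.00317).

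Matrix and adhesion genes that mark myofibroblasts did not follow the contractile genes. Of 17 such genes, late WT MEFs of the *S6K1* set had higher *Itga8*, an integrin subunit (1.89, adjusted *P* = 0.0142), and lower *Ccn1*, a matricellular protein (−1.09, 0.00029), *Col1a2* (−1.01, 0.0295) and *Col1a1* (−0.87, 0.0444), the chains of type I collagen. In the *S6K1/S6K2* set *Itga8* (0.83, 0.0291), *Col1a1* (−1.40, 0.00183) and *Col1a2* (−0.89, 0.0035) passed in the same directions. None of the 17 passed in KO or DKO MEFs by edgeR, 5 and 6 had an unadjusted *P* under 0.05, and DESeq2 called 2 and 1. Of all genes it tested, DESeq2 called 1.69% in KO and 7.43% in DKO MEFs.

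Markers of other cells moved with passage and genotype, and their part in the levels of the contractile genes was not tested. In bulk RNA, fewer cells of a type and less RNA per cell cannot be told apart. The summed level of 15 macrophage markers, all detected in every group, was 381 to 1085 CPM in early WT, 4858 to 10260 CPM in late WT and 3381 to 4218 CPM in KO MEFs of the *S6K1* set. It was 599 to 1873, 7181 to 12030 and 864 to 2991 CPM in early WT, late WT and DKO MEFs of the *S6K1/S6K2* set. Late WT MEFs of both sets gained macrophage transcripts, with 15 of 15 and 14 of 15 markers called higher, and DKO MEFs had lower levels, with 14 of 15 called. In KO MEFs all 15 estimates were negative (median −0.88), edgeR called 0 and DESeq2 called 3. The 8 mesothelial and epithelial markers summed to 53.3 to 95.5 CPM in early and 17.8 to 38.1 CPM in late WT MEFs of the *S6K1* set. Of the 6 with enough counts to be tested, 3 were called lower in each passage comparison. Skeletal muscle markers summed to 1.07 to 7.16 CPM over all libraries. *Myod1*, the muscle determination factor, was at 0 outside the DKO group and had at most 2 counts in a DKO library. Pericyte and vascular smooth muscle markers, a list that includes *Des*, summed to 117 to 265 CPM.

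Reads of the 10 genes could rarely be confused with protein-coding transcripts of other genes. Of the stretches of 50 bases (the read length) in the protein-coding transcripts of *Acta2*, 0.404% were shared with *Actg1*. For *Myh11* 0.392% were shared with *Myh9* or *Myh10*, and none of the other 8 genes shared any. Pseudogenes and other non-coding transcripts were not searched, nor were stretches of family genes outside the list. *Tagln* overlaps *Pcsk7* on the opposite strand over 65 bases (4.10% of its exons), and *Des* overlaps *Gm15179* over 220 bases (5.86%), and the strand setting of the counting is not given in the sources used here.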

How the data were processed

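The 22 libraries of serially passaged MEFs were grouped by the sample labels into 6 groups, each library being 1 replicate. Stranded mRNA libraries were sequenced as single-end reads of 50 bases. The deposited values are raw counts per gene, which the authors made without normalization. Their methods name CASAVA, TopHat, mm9 and HTSeq, whereas the submitters' processing notes name CASAVA, STAR 2.7.1a, mm10 and DESeq2 1.28.1. Of the 55401 identifiers, 22812 are absent from the GENCODE annotation of mm9, so gene positions are those of RefSeq on GRCm38.p6 (mm10). Symbols matched 32589 identifiers with 96.98% of counts.

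In R 4.3.3, edgeR 4.0.16 filtered genes by filterByExpr, scaled them by TMM (factors 0.8652 to 1.097 in the *S6K1* set and 0.9293 to 1.091 in the *S6K1/S6K2* set) and ran the quasi-likelihood *F* test with a robust fit on each set's 3 groups, and *P* values were adjusted over all tested genes by Benjamini-Hochberg, with a threshold of 0.05. All 10 contractile genes passed the filter. The share of all tested genes with an unadjusted *P* under 0.05 was not determined, so counts at that cut have no background beside them. Interactions were fitted on all 22 libraries. The SE is the log2 fold change divided by the square root of *F*. CPM divide by the total count. RPKM use exon lengths of GENCODE vM1. A library was taken as expressing Y-linked genes above 10 CPM. Alternatives were DESeq2 1.42.0, RLE scaling, library totals, no filter, fits on 2 or 6 groups, Y-linked expression as a covariate and leaving out each library. The tests were checked on simulated counts. The genes, the marker lists and the rule for named genes (all 10 genes, the targeted kinases, from each other list the 2 largest rises and 2 largest falls that passed with a mean of at least 1 CPM, *Srf* and its cofactors, and the 5 genes most like the list) were chosen with earlier results of these data known. *Actb*, *Col1a1* of the *S6K1* set, *Lmod1*, *Vcl*, *Rhoa*, *Rhob* and *Myod1* were named after their values were seen.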

Additional observations from a re-analysis of the deposited data

Results flagged for a closer look

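*Cnn1* was at 349.1 CPM in the replicate 1 library of late WT MEFs of the *S6K1* set, against 164.4 to 184.3 CPM in the other 3 libraries of that group. Its gap to the nearest of them was 0.8921 of the range of the group, above the 95% critical value of Dixon's test for 4 samples. Of the 40 groups of 4 libraries tested over the 10 genes this was the only one, and chance alone flags about 1 in 20.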

How the results depend on the processing

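No paired analysis was possible because the labels do not tie libraries of different groups to the same embryo, mother or day, and replicate numbers follow the accession order. Of 1260 values of the contractile genes under the alternatives, 1180 kept their direction and side of the threshold, 22 crossed it, 58 had the other sign and 0 were called with the other sign. The cause of these changes was not tested.

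In late against early WT MEFs of the *S6K1* set, 1 contractile gene was called on the 2 groups alone (*Des* −1.54, adjusted *P* = 0.00466) and 1 on all 6 groups (*Myl9* 0.73, 0.0450). DESeq2 called 4, RLE scaling 1 (*Tagln* 0.69, 0.0444) and the fit without a filter 1 (*Myl9* 0.72, 0.0462). The Y-linked covariate gave 5 (3301 genes in all), and leaving out each library gave 0 to 2. Of all tested genes, 9.69% were called on 2 groups, 17.2% on 6 groups and 16.1% by DESeq2. The shares were 12.7% with RLE scaling, 5.68% without a filter and 23.4% with the covariate. Leaving out early WT replicate 1 called *Tagln* (0.0385) and *Myl9* (0.0182), early WT replicate 3 or late WT replicate 4 called *Actg2* (0.0184 and 0.0332), KO replicate 2 called *Des* (0.0310), and KO replicate 3 called *Tagln* (0.0481) and *Des* (0.00286). Contractile genes higher in every late library numbered 2 with TMM-scaled or RLE-scaled CPM and 1 to 2 when each library was left out, alternatives chosen after seeing the data.

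Genes called in KO against late WT MEFs were 16 on all 6 groups, 250 by DESeq2 (1 of them contractile), 43 without a filter, 51 with the Y-linked covariate and 2 to 9 when each library was left out. In late against early WT MEFs of the *S6K1/S6K2* set, leaving out each library gave 885 (without early WT replicate 1) to 2247 genes, 0 to 1 of them contractile. In DKO against late WT MEFs it gave 97 (without DKO replicate 2) to 783 genes, and DESeq2 called 1172. DESeq2 called 218 genes for the interaction with passage and 63 for that with genotype, which had 3 without a filter and 1 to 5 when each library was left out.

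Changes of sign were among values that passed no test. The Y-linked covariate gave *Cnn1* 0.14 and *Actg2* −0.22 in the *S6K1* set (passage and KO) and *Acta2* 0.00091 for passage in the *S6K1/S6K2* set, and library totals gave the passage interaction of *Tpm1* as −0.0098 and of *Tpm2* as −0.033. When each library was left out, the passage estimates in the *S6K1* set ran from −0.39 to 0.43 for *Cnn1* and −0.019 to 0.24 for *Cnn2*, and the KO estimates from −0.070 to 0.18 for *Cnn2* and −0.22 to 1.52 for *Des*. Passage estimates in the *S6K1/S6K2* set ran from −0.22 to 0.13 for *Acta2*, −0.14 to 0.90 for *Actg2*, −0.087 to 0.35 for *Tagln*, −0.19 to 0.062 for *Cnn2* and −0.050 to 0.26 for *Myl9*. DKO estimates ran from −0.80 to 0.22 for *Actg2*, −0.055 to 0.22 for *Tagln*, −0.24 to 0.051 for *Cnn2*, −0.19 to 0.099 for *Myl9*, −0.27 to 0.14 for *Tpm2* and −1.18 to 1.13 for *Des*. The passage interaction ran from −0.79 to 0.0041 for *Cnn1*, −0.11 to 0.14 for *Tpm1*, −0.25 to 0.29 for *Tpm2* and −1.08 to 0.43 for *Des*, and the genotype interaction from −0.28 to 0.011 for *Cnn2* and −2.25 to 0.20 for *Des*.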
